A study of Mus musculus with 95 samples.

Results

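Glutathione and peroxide defence genes were followed in 2 neural tissues, the sciatic nerve (SCN) and the dorsal root ganglia (DRG), and in glomeruli (Glom) and cortex of the kidney, of control and diabetic mice. The set was defined by gene symbol alone and held 48 of the 25407 symbols in each table. It took in the glutathione S-transferases with symbols starting with Gst and a class letter, the microsomal transferases Mgst1 to Mgst3, the glutathione peroxidases Gpx1 to Gpx8, the peroxiredoxins Prdx1 to Prdx6, the glutathione synthesis genes Gclc, Gclm and Gss, glutathione reductase (Gsr), the superoxide dismutases Sod1 to Sod3, catalase (Cat), Nqo1 and Txnrd1. All mice were males of the BKS.Cg-m +/+ Leprdb/J strain, killed at 16 weeks of age. The db/+ mice carry 1 copy of the leptin receptor mutation and served as nondiabetic controls, whereas db/db mice carry it on both copies, which makes them obese and diabetic. The mutation is present in every cell from birth, so that obesity and diabetes come together in this model. Mice of each genotype were fed either plain chow (db/+ and db/db) or chow with pioglitazone, an agonist of the nuclear receptor PPARG, at 15 mg/kg for 11 weeks (db/+ PIO and db/db PIO). Each of the 16 groups of tissue, genotype and drug had 6 libraries, except DRG db/db, which had 5, for 95 in all.

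Glutathione is the most abundant small thiol of the cell. Gclc and Gclm, the catalytic and modifier subunits of glutamate-cysteine ligase, make its precursor, and Gss completes it. Glutathione peroxidases spend it to reduce hydrogen peroxide and lipid peroxides, glutathione S-transferases couple it to reactive compounds, and Gsr returns the oxidised form to the reduced one. Superoxide dismutases produce hydrogen peroxide from superoxide in the cytosol (Sod1), the mitochondria (Sod2) and the extracellular space (Sod3), and catalase and the peroxiredoxins remove it. Many of these genes are targets of the transcription factor Nfe2l2 (NRF2), which binds the antioxidant response element, and the kidney is a main source of the secreted peroxidase Gpx3.

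The core of that element, searched as the letters TGACNNNGC on both strands, was present between 250 bases before and 50 bases after a transcription start in 8 of the 42 members with a promoter entry in RefSeq (assembly GRCm38.p6), or 19.0%, against 14.0% of the 27025 genes with an entry. The 8 were Mgst1, Gstm5, Gclm, Gsta3, Gstm7, Prdx1, Txnrd1 and Sod1. The windows of the 3 of them that passed a test in a comparison below are shown with their GRCm38.p6 coordinates, read on the strand of the motif, with the motif in capitals.
Mgst1, chr6:138140461-138140489: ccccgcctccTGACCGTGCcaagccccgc
Gstm5, chr3:107895802-107895830: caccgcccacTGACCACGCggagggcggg
Gclm, chr3:122245413-122245441: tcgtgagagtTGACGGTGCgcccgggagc
The motif lay on the strand of the gene in Gstm5 and on the opposite strand in Mgst1 and Gclm. A match describes these letters only.

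Values were FPKM, the reads on a gene scaled by transcript length and by the mapped reads of the library, and the depth behind them is not recorded in the tables. An FPKM of exactly 0 was read as missing: 61.6% of the 4560 member entries were listed at 0, as were genes that every cell uses, among them Actb in 74 libraries against a median of 651.02 FPKM in the others. Among members with a usual level of 10 FPKM or more, 53.7% to 62.0% of the entries of a tissue were at 0, whereas 0.0% lay above 0 but under 0.1 times the usual level. This choice decides most calls: of the 69 calls described below, 5 remained when each 0 was entered as a value. Gpx1, Gsto1 and Nqo1 had no 0 in Glom. Their log2 fold changes within Glom stayed the same in that setting, and only the variances and the adjustment, which draw on all genes, changed. A member was tested when at least 5 libraries of the tissue reached an FPKM of 1 and at least 3 libraries of each group compared had a value. By the first criterion 27 members passed in SCN, 23 in DRG, 32 in Glom and 19 in cortex, and by both 32 of the 48 were tested in at least 1 comparison within a tissue, 17 of them were called in at least 1, and 16 were never tested. Differences are given as log2 fold changes of FPKM + 1 with the standard error (SE), and a gene was called at an adjusted p below 0.05 over all genes tested.

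The tissue labels were checked against marker genes. Mbp, a myelin gene, lay between 7888.53 and 13037.9 FPKM in all 24 SCN libraries, and the podocyte gene Podxl reached at least 1430.72 FPKM in every Glom library in which it had a value, while the defining markers Pmp22 and S100b (Schwann cell), Prph and Nefh (sensory neuron), Nphs1 and Wt1 (podocyte) and Lrp2 and Slc22a6 (proximal tubule, in cortex) were listed at 0 in every library of their own tissue. Yet Lrp2 and Slc22a6 had values in Glom, and Prph and Nefh had values in SCN. Entries at 0 thus need not fall at random with respect to level. Their effect on group means and on which members could be tested was not assessed. Glom db/+ replicate 2 stood apart in proximal tubule genes, with Slc22a6 at 21.49 FPKM against 0.48 to 1.86 in the other 5 db/+ libraries and Kap at 4781.43 against at most 281.39. Cortex db/db replicate 6 had the highest FPKM sum of the cortex, 601310.2 against a lowest of 184748.2, and DRG db/db replicate 3 had a summed skeletal muscle marker level of 422.8 against a median of 2.01 in its group, from 4 to 7 of 8 markers with a value. A summed marker level adds the markers with a value in a library, so that it also moves with the number listed at 0, which is given beside it. Results that change without 1 of these libraries are given with and without it. In whole tissue, fewer cells of a type and less RNA per cell cannot be told apart.

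Among the members, peroxidases had the highest levels in cortex (the plot of levels by tissue). Gpx3 ran from 9163.08 to 24269.1 FPKM over the 22 cortex libraries with a value and had medians of 30.5 in SCN, 57.4 in DRG and 212 in Glom, the last from only 2 libraries. Gpx1, the main cytosolic glutathione peroxidase, had medians of 2058 FPKM in cortex, 206 in SCN, 158 in DRG and 139 in Glom. Prdx5, a peroxiredoxin of mitochondria and peroxisomes, reached a median of 2933 FPKM in 15 cortex libraries and 201 to 383 in the other tissues. Low levels were found for Gstm3, Gstt4 and Gsta1, whose medians lay between 0.05 and 0.145 FPKM in every tissue. Prdx2 was listed at 0 in all 95 libraries and Gpx5 in all but 1.

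**Figure D1:**
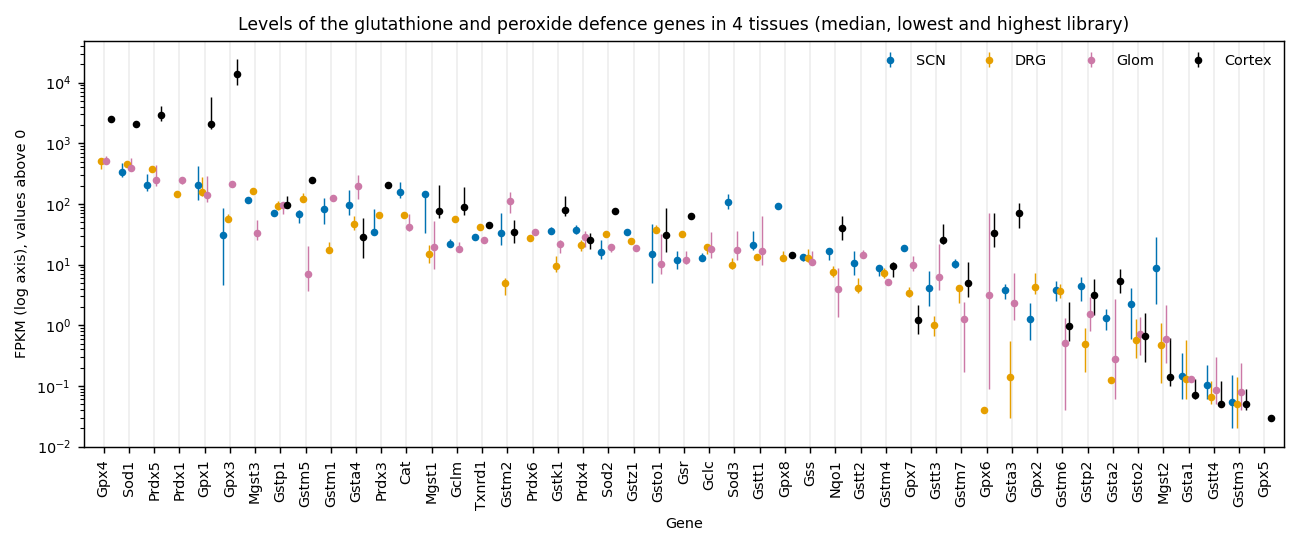
FPKM on a log axis for each member with a value above 0, by tissue, over all groups. Points are medians and lines run from the lowest to the highest library. Gpx3 and Prdx5 in cortex lie at the top, and Gstm3, Gstt4 and Gsta1 lie below 1 FPKM in all tissues.

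The first comparisons asked how control tissues differed in these genes. Between SCN and DRG of db/+ mice, 12 of 16 members tested were called, against 79.0% of the 4330 genes tested (28.0% higher in DRG and 51.0% higher in SCN), and 9 of the 12 were higher in SCN. Sod3, the extracellular superoxide dismutase, had values of 104.68, 107.73 and 117.25 FPKM in SCN and of 10.03 to 12.34 in 5 DRG libraries (log2 difference DRG minus SCN of -3.17, SE 0.26, adjusted p = 7.93e-08). Cat (-1.03), Gstk1 (-1.86), Gstt3 (-1.77), Gsta4 (-1.35), Nqo1 (-1.14), Gsto2 (-1.31), Prdx4 (-1.06) and Gstp2 were also higher in SCN, each with adjusted p of at most 0.000389 and with groups that did not overlap. The reverse held for Gsto1, which lay between 5.06 and 12.66 FPKM in SCN and between 35.48 and 40.67 in DRG (2.21, SE 0.22, adjusted p = 4.73e-09), for Gclm (1.24, SE 0.08) and for Gpx2 (1.14, SE 0.18). All genes tested had a median difference of -0.33, which became -0.05 after median-of-ratios rescaling, and the share of calls higher in DRG went from 35.4% to 49.3% (58.2% after quantile normalisation). The median of the members was -1.04 and became -0.61 with that rescaling.

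Between Glom and cortex of db/+ mice, 7 of 9 members tested were called, against 75.5% of the 4097 genes tested (23.3% higher in cortex and 52.2% higher in Glom). Gpx1 ranged from 115.4 to 270.95 FPKM in Glom, with a median of 128, and from 1691 to 2869 in cortex (log2 difference cortex minus Glom of 3.84, SE 0.18, adjusted p = 1.00e-14). Nqo1, a quinone reductase, was higher in cortex by 3.21 (SE 0.26), Gstt3 by 2.05 (SE 0.19), Gsto1 by 1.20 (SE 0.22), Gpx6 by 2.86 (SE 0.90, with overlap through Glom db/+ replicate 2, at 71.48 FPKM) and Gstm6 by 0.53 (SE 0.14). Levels of Gstm6 were low in both, at 0.04 to 0.5 FPKM in Glom and 0.6 to 1.4 in cortex. Gsta4, which conjugates lipid peroxidation products such as 4-hydroxynonenal, was the exception, with 119.35 to 243.74 FPKM in Glom and 12.8 to 30.87 in cortex (-2.94, SE 0.22, adjusted p = 2.79e-10). The median of all genes tested was again -0.33, and the share of calls higher in cortex was 30.8%, or 45.5% after median-of-ratios rescaling. Gstm6 and Gstp2 share 3.6% and 67.9% of their 50-base transcript stretches with a paralog, so that their levels are uncertain.

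In glomeruli, diabetes raised 9 of the 17 members tested and lowered none. Over all 4210 genes tested 25.4% were called and 16.5% were higher in db/db. Of the calls 64.9% were higher, or 41.8% after median-of-ratios rescaling. The members had a median log2 fold change of 0.59 against 0.04 for all genes, and of 0.47 against -0.07 with that rescaling. The 2 largest changes were in conjugating enzymes. Mgst1, a membrane-bound transferase with peroxidase activity (chr6:138088837-138105276, mm9, plus strand), read 8.51, 10.81, 13.04, 14.02 and 10.75 FPKM in db/+ and 41.09, 53.27 and 33.74 in db/db, a difference of 1.81 (SE 0.23, adjusted p = 4.70e-05) between groups that did not overlap. Gstt3, a theta-class transferase (chr10:75236860-75244159, minus strand, overlapping RP23-333M15.8 on the same strand), read 4.07, 3.97, 7.21 and 6.37 FPKM in db/+ and 20.96, 16.63 and 22.03 in db/db (1.73, SE 0.23, adjusted p = 6.12e-05). These 2 genes had a value in only 3 of the 6 db/db libraries. With each 0 entered as a value none of the 9 was called, and Mgst1 stood at -0.30, Gstt3 at 0.42 and Gsr at -0.38.

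Other enzymes of synthesis, peroxide removal and recycling moved less in Glom. Gclc read 14.87, 16.87 and 16.08 FPKM in db/+ and 28.36, 34.15 and 23.48 in db/db (0.79, SE 0.14, adjusted p = 0.00198), while its partner Gclm, at 18.4 ± 1.76 (SD, n = 6) and 19.8 ± 3.26 (n = 3), did not pass the test. Gpx1 had a median of 128 FPKM in db/+ and 229 in db/db (162.67 to 291.54), a difference of 0.60 (SE 0.16, adjusted p = 0.00836), and the groups overlapped through Glom db/+ replicate 2 alone, at 270.95. Gstk1, the mitochondrial and peroxisomal kappa-class transferase, ran from 15.72 to 19.54 FPKM in 4 db/+ libraries and from 21.79 to 25.43 in 6 db/db libraries (0.41, SE 0.08, adjusted p = 0.00166). Gsto1, the omega-class transferase described for all tissues below, rose by 0.92 (SE 0.24) and Nqo1 by 0.78 (SE 0.24, adjusted p = 0.0198). Sod3 lay at 11.74, 13.82, 15.93 and 13.03 FPKM in 4 db/+ libraries, at 36.39 in replicate 2, and between 22.18 and 28.67 in db/db (0.60, SE 0.20, adjusted p = 0.0332). Gsr rose from 11.7 ± 1.69 FPKM (n = 6) to 14.4 ± 2.06 (n = 5), a difference of 0.28 (SE 0.10, adjusted p = 0.0418).

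Not all of these calls stood when 1 library was left out. That of Gsr ended without any 1 of the Glom libraries db/+ 1, 3, 4, 5 and 6 and db/db 1, 2 and 3 (adjusted p up to 0.126), that of Sod3 without any 1 of db/+ 1, 3, 4 and 6 and db/db 1, 3 and 4 (up to 0.10), and that of Nqo1 without db/+ 3 or db/db 1 (up to 0.0582), where the digits are replicate numbers. The other 6 kept their calls in every such fit that left 3 values in each group. Gclc had only 3 values in each group, so these fits removed none of them and could not test its call. For Mgst1 and Gstt3 these fits removed no db/db value. Without Glom db/+ replicate 2, the library with the high tubule genes, 11 members were called, with Gstm5 and Gstm7 added. Only 5 were called without db/+ 3 or db/db 3 and 4 without db/db 1, where some members were left with too few values. Fitting these groups alone left 5 called and ended the calls of Gpx1, Gsr, Nqo1 and Sod3, median-of-ratios rescaling ended those of Gsr and Sod3, and quantile normalisation those of Gsr, Nqo1 and Sod3.

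Tubule markers moved in the same direction in Glom. Of 7 proximal tubule genes tested 3 were higher in db/db (Slc13a3, Slc22a12 and Slc22a8, by 0.98 to 1.42), and so were all 4 tested of the distal tubule and collecting duct list (Foxi1, Krt18, Krt19 and S100g, by 1.96 to 3.56). The summed level of the 12 proximal tubule markers ran from 30.99 to 4812 FPKM in Glom db/+, from 43.67 to 443.2 in db/db and from 22.9 to 163.2 in db/db PIO, from 4 to 11, 7 to 9 and 7 to 11 markers with a value, and Kap, the most abundant, was listed at 0 in db/+ 4 and 5 and db/db 2. That of the 12 distal markers ran from 22.55 to 298.5, 39.07 to 505.7 and 21.58 to 62.43, from 5 to 9, 3 to 5 and 5 to 11 markers. Umod, Slc12a1 and Slc12a3 were at 0 in all Glom db/+ and db/db libraries. Macrophage markers were called higher in 1 of 3 tested (C1qb) and erythroid genes in 3 of 3, while the 1 podocyte gene tested was not called. Fabp4 and Cox7a1 were higher too, each the only gene tested of the white and the brown adipocyte list. The part of these cells in the results of the members was not tested. Of the members called in Glom, Gpx1, Gstt3, Gsto1 and Nqo1 were among those higher in cortex than in Glom. The others called, Mgst1, Gclc, Gsr, Gstk1 and Sod3, had too few values in cortex db/+ for that test. Gpx6 was also higher in cortex and was not called with diabetes in Glom.

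**Figure D2:**
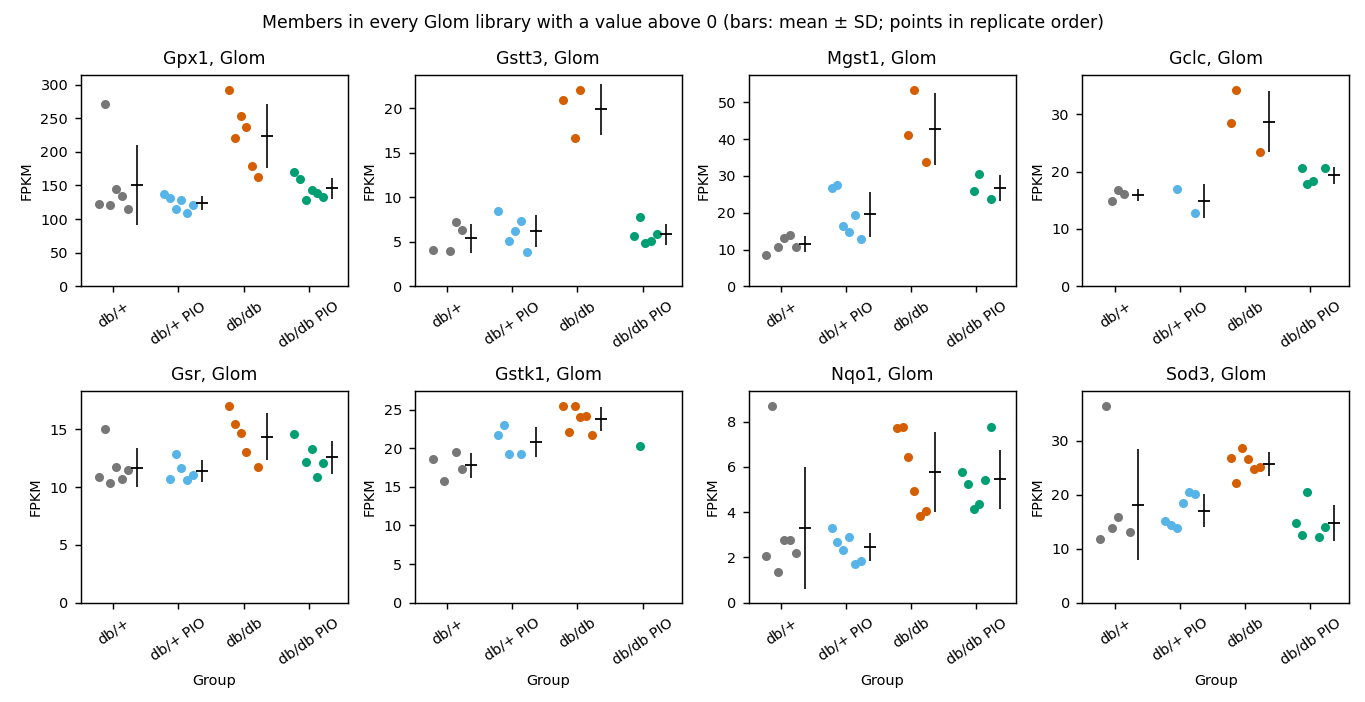
FPKM of 8 members in Glom by group, 1 point per library with a value above 0, with the mean ± SD beside each group. Mgst1, Gstt3 and Gclc in db/db lie above all db/+ libraries. The high db/+ points of Gpx1, Gsr, Nqo1 and Sod3 are all replicate 2.

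Pioglitazone was followed by lower levels in 5 of 15 members tested in db/db glomeruli, and by no higher level. All were among the 9 that diabetes raised, but both comparisons rest on the same db/db libraries, so that the values are only set side by side. Of all 4158 genes tested 23.1% were called and 15.9% were lower with the drug. Of the calls 31.1% were higher, or 60.1% after median-of-ratios rescaling. The median of the members was -0.53 against -0.04 for all genes, and -0.36 against 0.09 with that rescaling. Gstt3 read 5.64, 7.84, 4.91, 5.08 and 5.90 FPKM in db/db PIO and differed by -1.61 from db/db (SE 0.22, adjusted p = 0.000106), and 4 of its 5 db/db PIO values lay within the db/+ range of 3.97 to 7.21. Gpx1 fell to between 127.87 and 169.95 FPKM (-0.60, SE 0.16, adjusted p = 0.0103), Gclc to 20.57, 17.8, 18.36 and 20.66 (-0.53, SE 0.13, adjusted p = 0.0140) and Sod3 to 14.82, 12.55, 20.49, 12.11 and 14.02 (-0.78, SE 0.20, adjusted p = 0.00851). Gsto1 fell by 0.83 on the log2 scale (SE 0.24, adjusted p = 0.0137).

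The other members raised by diabetes in Glom did not pass this test. Mgst1 read 25.89, 30.48 and 23.7 FPKM in db/db PIO, below the 3 db/db values and above the 5 db/+ values (-0.64, SE 0.25, adjusted p = 0.0798), and was called, with Gstm5, when only these groups were fitted. Nqo1 ran from 4.12 to 7.76 FPKM in db/db PIO and from 3.82 to 7.76 in db/db, a difference of -0.06 (SE 0.24, adjusted p = 0.892), and Gsr differed by -0.18 (SE 0.10). Gstk1 had a value in only 1 db/db PIO library (20.29 FPKM) and could not be tested. Between db/+ PIO and db/db PIO, 1 of 16 members was called, against 8.41% of 4255 genes in either direction and 4.23% higher (50.3% of the calls higher in db/db PIO, 77.9% after quantile normalisation): Nqo1, at 1.69 to 3.29 FPKM and 4.12 to 7.76 in groups that did not overlap (0.90, SE 0.24, adjusted p = 0.0216). In the same comparison the macrophage genes C1qa, C1qb and C1qc were lower (-1.28 to -1.97 on the log2 scale) and the erythroid genes Alas2, Hba-a1 and Hba-a2 higher by 1.00 to 2.03, and their part was not tested.

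The 5 calls with pioglitazone held in each fit without 1 library that left 3 values per group, but 3 members were called without Glom db/db replicate 1, where Gclc and Gstt3 had too few values. For Gclc and Gstt3 these fits removed no db/db value, so they could not test that side. Quantile normalisation ended the calls of Gclc and Gsto1. With each 0 entered as a value none was called, and Gclc (0.46) and Gstt3 (0.12) changed direction. Markers moved with these results too: the same 3 proximal and 4 distal tubule genes were lower in db/db PIO, by 1.18 to 4.16 on the log2 scale, as were the macrophage genes C1qa, C1qb and C1qc and Cox7a1 of the brown adipocyte list, and their part in the results was not tested.

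In sciatic nerve, 3 of 15 members tested were called with diabetes, against 14.9% of 4233 genes (7.58% higher and 7.28% lower). Gsto1 was higher in db/db, and Gstm5 and Gstt3 were lower. Gstm5, a mu-class transferase, read 73.12, 79.79, 78.95 and 53.9 FPKM in db/+ and 47.63, 57.52 and 50.61 in db/db (-0.44, SE 0.13, adjusted p = 0.0435), and the groups overlapped through SCN db/+ replicate 6. Gstt3 had a median of 5.82 FPKM in db/+ (3.04 to 7.84) and of 3.34 in db/db (2.90 to 4.21), a difference of -0.55 (SE 0.18, adjusted p = 0.0469). The members had a median of -0.11 and all genes one of 0.02. Quantile normalisation moved these to 0.34 and 0.51, and the share of calls higher in db/db from 51.0% to 97.8%, and with it Gpx1, Gpx2, Gsr and Sod2 were called higher and Gstm5 and Gstt3 were not called.

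The 2 lower members were borderline. The call of Gstm5 ended without any 1 of the SCN libraries db/+ 1 to 4 (adjusted p up to 0.0937) and that of Gstt3 without any 1 of db/+ 1 to 4 and db/db 1, 3, 5 and 6 (up to 0.0957). Only 1 member was then called without db/+ 1, 2, 3 or 4 or db/db 1 or 5. Both were also lost with no filter on low values and when only these groups were fitted, and with each 0 entered as a value none of the 3 was called. Mbp was lower in db/db (-0.31, SE 0.09, adjusted p = 0.0286), and its part in these results was not tested.

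Pioglitazone was followed by higher levels of 5 of 15 members in db/db nerve, against 10.1% of 3940 genes called in either direction and 6.5% called higher. The members had a median log2 fold change of 0.30 against 0.02 for all genes. These became 0.25 and -0.01 after median-of-ratios rescaling and 0.14 and -0.16 after quantile normalisation. Of the calls over all genes 64.2% were higher, or 62.9% and 57.7% with these rescalings. Gpx1 had a median of 206 FPKM in db/db (193.59 to 291.76) and of 344 in db/db PIO (251.64 to 427.77), a difference of 0.64 (SE 0.17, adjusted p = 0.0189) between groups that overlapped through SCN db/db replicate 4. Gsta4 ran from 71.91 to 103.59 FPKM in 6 db/db libraries and read 114.51, 130.73 and 167.57 in db/db PIO (0.59, SE 0.17, adjusted p = 0.0319). Sod2, the mitochondrial superoxide dismutase, read 17.17, 15.19, 15.01, 20.79 and 16.37 FPKM in db/db and 22.06, 25.23, 18.67, 21.27 and 20.41 in db/db PIO (0.33, SE 0.10, adjusted p = 0.0359). Gsr rose from 13.81, 10.84, 10.74 and 11.34 FPKM to a median of 15.0 (12.37 to 17.07), a difference of 0.31 (SE 0.10, adjusted p = 0.0458), and Gsto1 by 1.13 (SE 0.29). None of Gpx1, Gsr, Gsta4 or Sod2 was called with diabetes in SCN, where they differed by 0.38, 0.14, -0.19 and 0.17.

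Several of these calls were fragile as well. That of Gpx1 was lost without SCN db/db replicate 3 (adjusted p = 0.0513), that of Gsta4 without db/db 1 or 6 (up to 0.0563), that of Sod2 without any 1 of db/db 2, 3 and 5 and db/db PIO 2, 3 and 5 (up to 0.0976) and that of Gsr without any 1 of db/db 2, 3, 5 and 6 and db/db PIO 1 to 4 (up to 0.132). The count was then 2 without db/db PIO 2 or db/db 3, and 3 without db/db PIO 3 or 4 or without db/db 2, 5 or 6. With no filter on low values only Gpx1 and Gsto1 were called. Median-of-ratios rescaling ended the call of Gsr. After quantile normalisation only Gpx1 was called, and with each 0 entered as a value none was, Gsta4 then standing at -2.96.

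**Figure D3:**
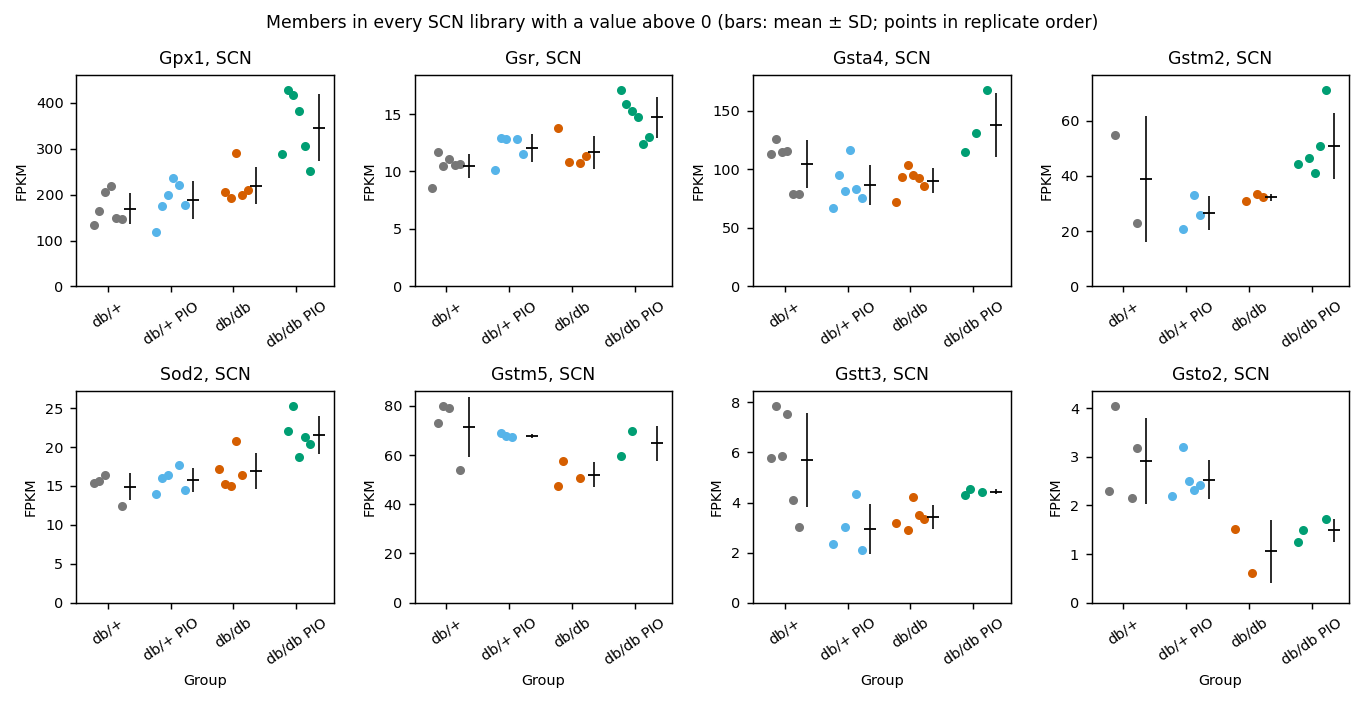
FPKM of 8 members in SCN by group, 1 point per library with a value above 0, with the mean ± SD beside each group. Gpx1, Gsta4, Gstm2 and Sod2 are highest in db/db PIO, and Gstm5 and Gstt3 are lower in db/db than in most db/+ libraries.

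Adipocyte markers rose in the same nerves. The fatty acid binding protein gene Fabp4 ran from 2427.73 to 8591.48 FPKM in db/db and from 7230.4 to 16830.2 in db/db PIO (1.44, SE 0.28, adjusted p = 0.00393). It was the only white adipocyte marker of 9 that could be tested, and Adipoq, Plin1, Cidec, Cfd and Retn were at 0 in every library of both groups. Both brown adipocyte markers that could be tested, of 5, were higher in db/db PIO. Cidea ran from 0.15 to 0.91 FPKM in 5 db/db libraries and read 14.89, 29.48, 4.89 and 6.18 in db/db PIO (3.04), and Cox8b ran from 4.92 to 16.15 and read 136.9, 247.63, 72.61 and 88.57 (3.77). Both were listed at 0 in db/db PIO 1 and 6, where Fabp4 had a value. The part of adipose tissue in the results of the members was not tested.

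Genotype under treatment gave the largest number of calls in SCN. Between db/+ PIO and db/db PIO, 8 of 15 members were called, 7 of them higher in db/db PIO, against 33.8% of 4402 genes (20.6% higher and 13.1% lower), and of the calls 61.1% were higher (45.5% after median-of-ratios rescaling and 86.0% after quantile normalisation). Gpx1 lay between 117.81 and 235.35 FPKM in db/+ PIO and did not overlap with db/db PIO (0.88, SE 0.16, adjusted p = 0.000316). Gstm2 read 20.94, 33.11 and 25.76 FPKM in db/+ PIO and 44.38, 46.27, 40.94, 50.87 and 70.96 in db/db PIO (0.90, SE 0.25, adjusted p = 0.0143), although 1.0% of its 50-base stretches occur in a paralog. Sod2 (0.43, SE 0.10), Gsta4 (0.67, SE 0.17), Prdx4 (0.24, SE 0.07), a peroxiredoxin of the endoplasmic reticulum, and Gsto1 (1.63, SE 0.27) were also higher and kept their calls in each fit without 1 library that could be run. For Gsta4 these fits removed no db/db PIO value. Gsr (0.27, SE 0.09) lost its call without any 1 of the SCN libraries db/+ PIO 1 and 6 and db/db PIO 1 and 2 (adjusted p up to 0.0862), and both Gsr and Prdx4 lost theirs under either rescaling. Gsto2, the neighbour of Gsto1, was lower, at 2.19, 3.21, 2.5, 2.31 and 2.43 FPKM against 1.25, 1.49 and 1.73 (-0.50, SE 0.18, adjusted p = 0.0426), and lost its call without any 1 of db/+ PIO 3 to 6 (up to 0.0852). The count was 5 without db/+ PIO 6 or db/db PIO 2. With each 0 entered as a value none was called, and Gsta4 (-2.88) and Gsto1 (-0.16) changed direction. Macrophage genes (C1qa, Lyz2 and Mrc1, by 1.00 to 2.13) and 2 of 3 muscle genes were higher in the same comparison and the myelin gene Mbp (-0.26) lower, as Ptpro and Aqp1 of the kidney lists were higher (1.04 and 1.30), and their part was not tested.

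**Figure D4:**
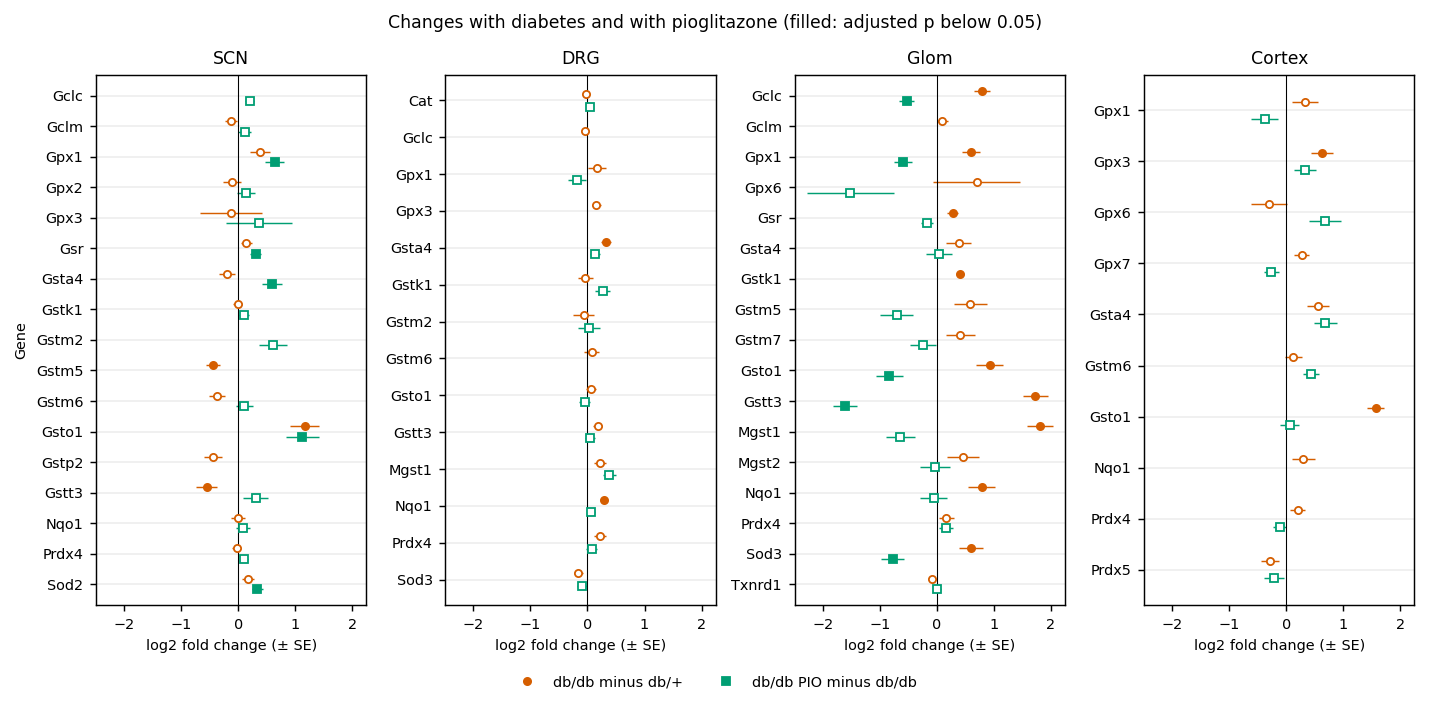
Log2 fold change of FPKM + 1 (± SE) of each member tested, by tissue, for db/db minus db/+ (circles) and db/db PIO minus db/db (squares); filled symbols had an adjusted p below 0.05. In Glom the filled circles lie above 0 and the filled squares below 0, and in SCN the filled squares lie above 0. Both contrasts share the db/db libraries.

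The change with pioglitazone in db/db mice was compared between SCN and Glom directly. Of 8 members that could be tested for the difference, 5 were called, against 21.3% of 2564 genes (14.5% more positive in SCN), and in all 5 the SCN change was the more positive. The difference (SCN change minus Glom change) was 1.96 for Gsto1 (SE 0.38, adjusted p = 0.000228), 1.91 for Gstt3 (SE 0.31, adjusted p = 6.38e-05), 1.24 for Gpx1 (SE 0.24, adjusted p = 0.000234), 0.73 for Gclc (SE 0.15, adjusted p = 0.00117) and 0.48 for Gsr (SE 0.14, adjusted p = 0.0121). Gpx1 thus went from 220 ± 40.6 FPKM (SD, n = 5) to 346 ± 72.9 (n = 6) in SCN and from 224 ± 47.7 (n = 6) to 146 ± 16.2 (n = 6) in Glom. For Gsta4 (0.55, SE 0.29), Nqo1 (0.14, SE 0.30) and Prdx4 (-0.07, SE 0.15) the difference did not pass the test. All 5 calls held in each fit without 1 library that could be run, and 3 members were called without replicate 1 of Glom db/db or replicate 5 of SCN db/db PIO, where Gclc and Gstt3 had too few values. For Gclc these fits removed values only in Glom db/db PIO. For Gstt3 they removed none in Glom db/db or SCN db/db PIO, so the fits could not test these groups. The share of calls more positive in SCN was 68.1% over all genes, 40.5% after median-of-ratios rescaling and 45.9% after quantile normalisation. The call of Gsr was lost under both rescalings and that of Gclc after quantile normalisation. With each 0 entered as a value none was called, and Gclc (-0.36) and Gstt3 (-0.68) changed direction.

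For diabetes itself, 2 of 10 members differed between SCN and Glom, against 15.9% of 2692 genes (9.14% more negative in SCN). Gstt3 was lower in db/db nerve and higher in db/db glomeruli (-2.28, SE 0.30, adjusted p = 3.68e-06), and Gstk1 changed by -0.01 in SCN and by 0.41 in Glom (-0.41, SE 0.11, adjusted p = 0.0102). Gsto1 changed alike in sign, and its difference of 0.24 (SE 0.36, adjusted p = 0.705) did not pass the test. The count was 4 without replicate 2 of Glom db/+ or replicate 6 of Glom db/db (Gstm5 and Nqo1 added), and 1 without any 1 of Glom db/db 1, 3 and 4 and SCN db/db 1, 3 and 6, which left Gstt3 or Gstk1 with too few values. The call of Gstk1 was lost under both rescalings, and with each 0 entered as a value neither was called. Of the calls over all genes 42.5% were more positive in SCN, or 60.2% after median-of-ratios and 94.5% after quantile normalisation.

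Gsto1, the omega-class transferase that also reduces dehydroascorbate, was called in 3 of the 4 tissues with diabetes (chr19:47929460-47939280, mm9, plus strand, lying within Wdr96 on the opposite strand, so that reads of the 2 genes cannot be told apart in libraries that do not mark strand). Other called members also overlap an annotated gene, Gstt3, Gsr and Gstm6 on the same strand and Gsto2, Gstm5, Gclm and Gpx2 on the opposite strand. Reads may be mixed there too. In the cortex, Gsto1 values were as follows. Gsto1 read between 16.4 and 30.51 FPKM in db/+ and 75.5, 72.31, 78.49, 57.98 and 71.74 in db/db, a difference of 1.57 (SE 0.15, adjusted p = 7.24e-07). In SCN it ran from 5.06 to 12.66 FPKM in db/+ and read 21.09, 17.51, 13.26, 28.93 and 12.83 in db/db (1.17, SE 0.26, adjusted p = 0.00535). In Glom the db/+ values were 7.59 to 8.39 FPKM in 5 libraries and 23.17 in replicate 2, and the db/db values 11.92 to 31.81 (0.92, SE 0.24, adjusted p = 0.00581). The groups overlapped in Glom through that db/+ library and did not overlap in SCN or cortex. In DRG it stayed between 34.03 and 45.33 FPKM in all 4 groups, and it did not pass a test there.

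With pioglitazone in db/db mice, the values of Gsto1 differed by tissue. In SCN it read 40.78, 44.7, 45.99 and 31.28 FPKM, above all db/db libraries (1.13, SE 0.29, adjusted p = 0.0150). In Glom it lay between 7.89 and 11.41, below all db/db libraries (-0.83, adjusted p = 0.0137), and in cortex it read 70.8, 86.04, 68.64 and 71.33, within or above the db/db range (0.06, SE 0.17, adjusted p = 0.850). The 5 calls of Gsto1 in these 2 contrasts held in each fit without 1 library. Those with pioglitazone were lost after quantile normalisation, and all 5 were lost with each 0 entered as a value. In Glom, Gsto1 had a value in all 24 libraries, and its differences there stayed at 0.92 and -0.83 (adjusted p = 0.151 and 0.222 by limma).

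**Figure D5:**
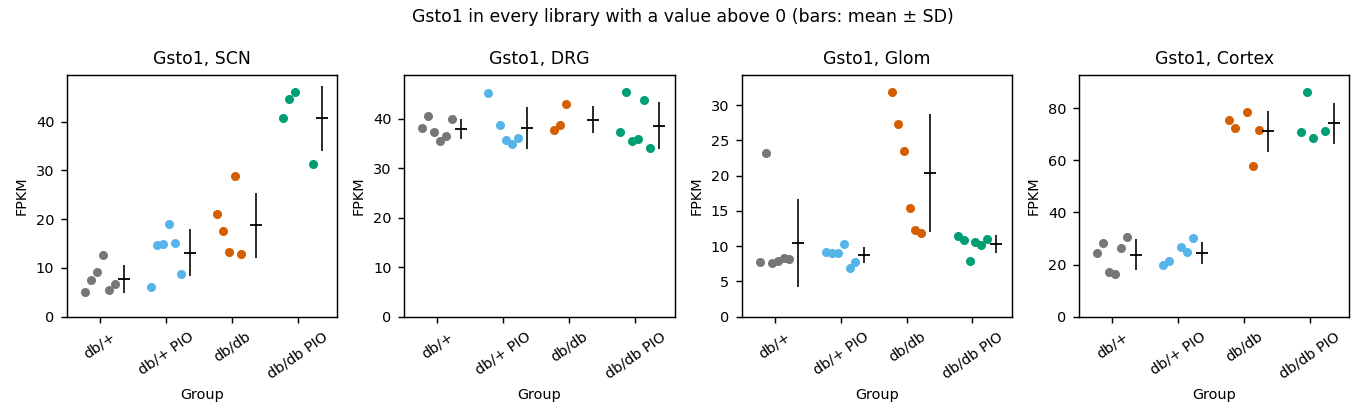
FPKM of Gsto1 in each tissue and group, 1 point per library with a value above 0, with the mean ± SD beside each group. The db/db PIO points lie above db/db in SCN, below it in Glom and at its level in cortex, and DRG stays between 34.03 and 45.33 FPKM.

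Dorsal root ganglia showed small differences. With diabetes 2 of 14 members were called, against 4.13% of 3829 genes (2.79% higher), and both were higher. Nqo1 read 6.26 to 7.0 FPKM in 5 db/+ libraries and 8.49, 8.42, 9.01, 8.09 and 7.45 in db/db, without overlap (0.28, SE 0.06, adjusted p = 0.0146), and was called in each fit without 1 library, that without DRG db/db replicate 3 included. Gsta4 read 37.1, 43.18, 39.69 and 38.67 FPKM against 48.35, 46.08, 52.03 and 53.35 (0.33, SE 0.09, adjusted p = 0.0418), but its call ended without any 1 of the DRG libraries db/+ 1, 3 and 6 and db/db 1, 2, 4 and 5 (adjusted p up to 0.112), which left 1 member called. It was also lost with no filter on low values and after median-of-ratios rescaling, and both were lost after quantile normalisation and with each 0 entered as a value. Macrophage markers were higher in 4 of 7 tested, with summed levels of 13.93 to 63.74 FPKM in db/+ (7 to 9 of 9 markers with a value) and 42.03 to 70.46 in db/db (8 to 9), and their part was not tested.

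Under pioglitazone, 4 of 15 members were called between the genotypes in DRG, against 8.64% of 4095 genes, 4.1% higher and 4.54% lower (47.5% of the calls higher in db/db PIO, 84.5% after quantile normalisation). Nqo1 (6.96, 7.14 and 6.31 FPKM against 8.67, 9.13, 7.56, 8.79 and 9.44, a difference of 0.31, SE 0.07) and Gsta4 (0.33, SE 0.07) were again higher. Mgst1 ran from 13.07 to 18.6 FPKM in db/+ PIO and read 20.99, 20.26, 20.02 and 20.34 in db/db PIO (0.39, SE 0.10, adjusted p = 0.0227). Sod3 was lower, at 12.11, 12.85, 11.21, 9.88 and 12.44 FPKM against 9.62, 8.94, 8.95, 9.37 and 9.77 (-0.29, SE 0.08, adjusted p = 0.0312), and lost its call without any 1 of the DRG libraries db/+ PIO 1, 2 and 6 and db/db PIO 2, 3 and 4 (up to 0.0679). Without db/+ PIO 6, 2 members were called. Quantile normalisation left Gsta4 alone, fitting these groups alone ended the calls of Nqo1 and Sod3, and with each 0 entered as a value none was called and Mgst1 stood at -1.08. The macrophage genes Cd163 and Mrc1 (1.04 and 0.52) and all 4 white adipocyte genes tested were higher in db/db PIO, the latter with summed levels of 8.63 to 88.45 FPKM in db/+ PIO and 30.87 to 190.7 in db/db PIO (6 to 8 of 9 markers with a value in each), while Cox7a1 of the brown adipocyte list was lower (-0.61), and their part was not tested. With pioglitazone in db/db mice, limma called none of 11 members, of which 1 had an unadjusted p below 0.05, and 0.0% of 3794 genes.

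In cortex, Gpx3 and Gsto1 were the 2 of 10 members called with diabetes, against 10.3% of 3925 genes (4.33% higher). Gpx3 ran from 9163.08 to 13420.7 FPKM in db/+ and read 19769.1, 19028.9, 20971.5, 17493.7 and 12864.2 in db/db (0.63, SE 0.19, adjusted p = 0.0324), with overlap through Cortex db/db replicate 6. That call ended without any 1 of the cortex libraries db/+ 2, 3 and 6 and db/db 1, 3 and 4 (adjusted p up to 0.0731) and was lost under both rescalings, with no filter on low values and when only these groups were fitted, and 1 member was called without db/+ 2 or 3 or db/db 1, 3 or 4. With each 0 entered as a value Gpx3 stood at -1.72.

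Pioglitazone gave no call among 9 members in db/db cortex by limma, against 3.24% of 3890 genes (17.5% of them higher, 43.0% after median-of-ratios rescaling), although 3 had an unadjusted p below 0.05. Gsta4 read 31.76, 25.92, 29.22, 36.34 and 32.58 FPKM in db/db and lay between 41.04 and 58.81 in db/db PIO without overlap (0.69, SE 0.20, adjusted p = 0.0570), and was called when only these groups were fitted and after median-of-ratios rescaling. Without Cortex db/db PIO replicate 3, Gstm6 was called. Between the treated genotypes 4 of 9 members were called, all higher in db/db PIO, against 19.7% of 3865 genes in either direction and 7.09% higher (36.0% of the calls higher, 47.9% and 22.5% after the 2 rescalings). Gpx3 ran from 9840.85 to 15302.5 FPKM in db/+ PIO and read 21573.3, 24013.0, 20015.5, 24269.1 and 22549.6 in db/db PIO (0.82, SE 0.19, adjusted p = 0.00318). Gsta4 read 14.3, 21.2, 24.18, 17.2 and 28.28 FPKM in db/+ PIO (1.26, SE 0.20, adjusted p = 9.18e-05), Gsto1 19.7, 21.25, 26.61, 24.9 and 30.04 (1.57, SE 0.17, adjusted p = 2.49e-06), and Gstm6 differed by 0.52 (SE 0.15) until Cortex db/+ PIO replicate 6 was left out (adjusted p = 0.0501). Levels of Gstm6 were low, at 0.55 to 1.26 FPKM in db/+ PIO and 0.76 to 2.4 in db/db PIO, and the groups overlapped. Quantile normalisation ended the calls of Gpx3 and Gstm6, and with each 0 entered as a value none was called and Gpx3 stood at -1.59. Macrophage genes were lower in db/db than db/+ cortex in 3 of 3 tested, with summed levels of 53.82 to 110.4 FPKM in db/+ (4 to 5 of 9 markers with a value) and 30.73 to 76.7 in db/db (5 to 8), and the adipocyte gene Lpl was lower too (-1.68). They were lower in db/db PIO than in db/+ PIO in 5 of 5, at 39.03 to 102.8 (5 to 7 markers) and 22.11 to 38.22 (6 to 8). Between the treated genotypes Kap, the 1 proximal tubule marker tested in cortex, was lower in db/db PIO (-3.18, SE 0.42, adjusted p = 5.62e-05), as was Pparg (-0.61), and Hbb-b1 (1.81) was higher. Of the macrophage genes C1qa, C1qb and Lyz2 were also lower in db/db PIO than in db/db. The part of these markers in the results of the members was not tested.

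Pioglitazone in db/+ mice gave no call among the members by limma: 20 were tested in SCN, 15 in DRG, 17 in Glom and 11 in cortex, and 4, 1, 2 and 0 of them had an unadjusted p below 0.05. The shares of all genes called were 0.0778%, 0.0%, 0.0% and 0.025%. In SCN, Gsto1 had medians of 7.13 FPKM in db/+ and 14.8 in db/+ PIO, with overlapping ranges of 5.06 to 12.66 and 6.02 to 19.05. Without SCN db/+ replicate 6, 1 member (Gstt3) was called in SCN.

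Other genes of the same pathways, from a separate list of 63, were read against the shares of all genes. In Glom 8 of 22 tested were higher in db/db, against 16.5% of all genes, among them Txnip, the inhibitor of thioredoxin, at 437 ± 12.8 FPKM (n = 5) against 640.5 ± 34.0 (n = 3) (0.55, SE 0.10), Sesn2, a stress-induced sestrin (0.90, SE 0.12), Glrx, which removes glutathione from proteins (0.70, SE 0.15), Cth, which makes cysteine (1.21, SE 0.37), and Hmox1, the haem oxygenase and an NRF2 target (0.53, SE 0.16). Sepsecs, which charges selenocysteine tRNA, was lower (-0.34, SE 0.10). With pioglitazone 7 of 25 were lower in Glom, against 15.9%, including Sesn2 (-1.04), Txnip (-0.47), Cth (-1.46), Glrx (-0.57) and the glutamine transporter gene Slc1a5 (-1.28), and Txnrd3 was higher (0.59). In SCN, diabetes raised Glrx (0.65, SE 0.17) and Akr1b8 (0.46, SE 0.12) and lowered Hmox1 (-0.35, SE 0.11) and Akr1b3, the aldose reductase (-0.86, SE 0.14), of 24 tested, a share near the 14.9% of all genes. Pioglitazone raised Cth (1.27), Msra, the methionine sulfoxide reductase (1.04), Sephs2 (0.63) and Hmox1 (0.53) of 22 tested in db/db nerve, against 6.5% of all genes. Between treated genotypes 11 of 23 were higher in db/db PIO nerve, against 20.6%, including G6pdx, which supplies NADPH (1.12, SE 0.23). DRG had 1 of 25 called with diabetes, Txnip, at 0.72 (SE 0.14), a share near the 4.13% of all genes, and cortex none of 19 by limma.

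The 16 members that were never tested within a tissue included several with high levels where they had a value. Sod1 had a value in 17 of 95 libraries, with tissue medians of 338 FPKM in SCN and 389.5 in Glom, Prdx1 in 9 libraries, Gpx4, the lipid peroxide reductase, in 9, and Prdx6 in 3. Gstp1 (16 libraries) and Gsta1 (21) also share 67.5% and 44.6% of their 50-base stretches with a paralog. For these genes no difference between groups could be tested, and none is described.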

How the data were processed

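Each library's table held FPKM values that the authors computed with Cufflinks after TopHat alignment of TruSeq mRNA reads to the mouse genome (NCBI build 37, mm9) and deposited to 2 decimals; the kit does not mark strand. Sex and diet are from the study's methods. Depth per library is not in the tables. The members and lists were chosen with earlier results of these data known. Every member called is described, and other pathway genes are named only when called. Values of 0 were read as missing. From log2(FPKM + 1), limma 3.58.1 in R 4.3.3 fitted 1 mean per group over the groups of a tissue. SCN against DRG and Glom against cortex were fitted on the db/+ groups of all 4 tissues. The differences between SCN and Glom were fitted on the groups of both. Libraries were treated as independent, also between tissues. Variances were moderated along an intensity trend over all genes with an FPKM of 1 or more in at least 5 libraries. Tests needed 3 or more values in each group, p-values were adjusted by Benjamini-Hochberg over all genes tested, and the method was tested on simulated data. The simulation kept the observed entries at 0, so it did not test the reading of 0 as missing. Tests are two-sided. Labels do not say whether libraries of a group are separate animals, so p-values measure the spread between libraries. The study's methods give as many mice in each group as libraries, except in DRG db/db. They do not match libraries to mice. Transcript overlaps used the mm9 annotation. Alternatives were other treatments of 0, minimum numbers of values of 2 and 5, a pseudocount of 0.1, no filter, 2 rescalings, other variance models, a replicate block and leaving out each library. Some marker genes are not reported here.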

Additional observations from a re-analysis of the deposited data

Results flagged for a closer look

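Of the 91 groups of 4 to 10 libraries tested for 1 library far from the others, 11 had one, where chance alone gives about 1 in 20. Glom db/+ replicate 2 accounted for 6 of them, with the highest value of its group in Gpx1 (270.95 FPKM), Gsr (14.98), Gsto1 (23.17), Nqo1 (8.68), Sod3 (36.39) and Gpx6 (71.48). The same library held Slc22a6 at 21.49 FPKM and Kap at 4781.43, and the part of tubule RNA in these values was not tested. The other 5 were Gpx1 in SCN db/db replicate 4 (291.76 FPKM), Gsta4 in DRG db/+ PIO replicate 1 (54.44), Gsto1 in Glom db/db PIO replicate 3 (7.89, the lowest of its group) and in Cortex db/db PIO replicate 3 (86.04), and Gpx6 in Cortex db/+ replicate 2 (70.84).

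Effects that differed between SCN and Glom by a test of the difference (SCN minus Glom, log2 scale) were those of diabetes on Gstk1 (-0.41) and Gstt3 (-2.28), and those of pioglitazone in db/db mice on Gclc (0.73), Gpx1 (1.24), Gsr (0.48), Gsto1 (1.96) and Gstt3 (1.91).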

How the results depend on the processing

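Counts of members called are given for each setting that moved them by over 1.5 times, with the count as reported in parentheses, and the cause was not tested. With diabetes in SCN (3), the count was 0 with each 0 entered as a value, 5 after quantile normalisation, and 1 with no filter, with only the groups compared or with the replicate block. With pioglitazone in SCN (5), it was 0 with each 0 as a value, 2 with at least 5 values or no filter and 1 after quantile normalisation. Between treated genotypes in SCN (8), it was 0, 3 with at least 5 values and 5 after quantile normalisation. In DRG, diabetes (2) gave 0 with each 0 as a value or quantile normalisation and 1 with at least 2 or 5 values, no filter, median-of-ratios or the replicate block, and treated genotypes (4) gave 0, 2 with at least 5 values or only the groups compared and 1 after quantile normalisation. In Glom, diabetes (9) gave 0 with each 0 as a value and 5 with at least 5 values or only the groups compared, pioglitazone (5) gave 0, 3 with at least 5 values and 3 after quantile normalisation, and treated genotypes (1) gave 0 and 2 with only the groups compared. In cortex, diabetes (2) gave 1 (Gsto1) with no filter, either rescaling, only the groups compared or the replicate block. With each 0 as a value it also gave 1, but this was Gstt3, and both Gpx3 and Gsto1 were lost. Also in cortex, pioglitazone (0) gave 1 with at least 5 values, median-of-ratios or only the groups compared and 2 with array weights, and treated genotypes (4) gave 0 with each 0 as a value and 2 after quantile normalisation. SCN against DRG (12) gave 4 with each 0 as a value and 5 with at least 5 values, and Glom against cortex (7) gave 11 with at least 2 values and 3 with at least 5. The differences between SCN and Glom gave 0 with each 0 as a value; that for diabetes (2) gave 0 with at least 5 values, 1 after either rescaling and 5 with array weights, and that for pioglitazone (5) gave 1 with at least 5 values and 3 after quantile normalisation. Leaving out each library gave 1 to 4, 2 to 5, 5 to 8 and 0 to 1 calls in SCN (diabetes, pioglitazone in db/db, treated genotypes, pioglitazone in db/+), 1 to 2 and 2 to 5 in DRG (diabetes, treated genotypes), 4 to 11, 3 to 5 and 1 to 1 in Glom, 1 to 2, 0 to 1 and 3 to 4 in cortex, 9 to 12 for SCN against DRG, 7 to 8 for Glom against cortex, and 1 to 4 and 3 to 5 for the differences. With each 0 entered as a value, log2 fold changes reversed for Gsta4 in SCN with pioglitazone (-2.96) and between treated genotypes (-2.88), Gsto1 there (-0.16), Mgst1 in DRG between treated genotypes (-1.08), Gsr (-0.38) and Mgst1 (-0.30) in Glom with diabetes, Gclc (0.46) and Gstt3 (0.12) in Glom with pioglitazone, Gpx3 in cortex with diabetes (-1.72) and between treated genotypes (-1.59), and Gclc (-0.36) and Gstt3 (-0.68) for the pioglitazone difference. Of 69 calls, 67 were kept with a pseudocount of 0.1, 68 with array weights and 67 without the trend. Same-numbered libraries in different groups of the same tissue correlated between -0.473 and 0.564. No such comparison had every pair above 0.1, so that the numbers were not taken to pair samples within a tissue. In Glom, 5 of 6 pairs were above 0.1 between db/+ and db/+ PIO, and 4 of 6 between db/+ and db/db. The count was also 4 of 6 between db/+ and db/+ PIO in SCN and between db/+ PIO and db/db PIO in DRG. It was at most 3 elsewhere. This rule does not exclude an effect shared by same-numbered libraries. Correlation across tissues was not checked, and the tests between tissues treated their libraries as independent. The labels do not say whether libraries of different tissues come from the same mice. The study's methods name the tissues together for the same groups of mice, so that libraries of different tissues may share mice. With the replicate block 56 of the 69 calls were kept and 1 could not be fitted. It ended the calls of Gclc, Gsr and Sod3 (diabetes) and Gclc (pioglitazone) in Glom, Gstm5 and Gstt3 (diabetes), Gsr and Gsta4 (pioglitazone) and Gsr and Prdx4 (treated genotypes) in SCN, Gsta4 in DRG and Gpx3 in cortex (diabetes). Depth is not recorded, and a member with few values above 0 could not be tested at all.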
